A study of Sus scrofa with 15 samples.

Results

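The transcripts of the MOS and MAP kinase pathway, which holds the mature oocyte in metaphase II, were measured in pig oocytes. The 7 genes were *MOS*, *MAP2K1*, *MAP2K2*, *MAPK3*, *RPS6KA1*, *RPS6KA2* and *RPS6KA3*, taken by gene symbol from the 22516 genes of the deposited gene table. Each library held the polyA RNA of a pool of sow oocytes with the cumulus cells removed. GV oocytes came from fresh follicles without culture. MII oocytes had a first polar body after 44 h of in vitro maturation of the cumulus oocyte complexes, and 'damaged' oocytes had none after the same culture. 'Damaged' is thus a class defined by this 1 visible feature. There were 5 libraries in each group.

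MOS is a kinase of the germ cells that is made from stored maternal mRNA once meiosis resumes. It phosphorylates and switches on the kinases MEK1 and MEK2 (*MAP2K1* and *MAP2K2*), which do the same to the ERK kinases (*MAPK3* encodes ERK1), and these activate the p90 ribosomal S6 kinases RSK1, RSK3 and RSK2 (*RPS6KA1*, *RPS6KA2* and *RPS6KA3*). The chain keeps the anaphase promoting complex inhibited until fertilisation, an activity known as cytostatic factor. Activity of these kinases depends on phosphorylation, and only their transcripts were measured here.

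Of the 15 libraries, 14 were compared. GV replicate 3 had the lowest total, 6.40 M estimated counts against 11.96 to 23.6 M in the others, and its values are given apart. Among the columns deposited per gene, 7 of 15 carried the name of another library than the one whose total they held. Their totals were those of GV replicates 1 to 3, MII replicates 1 and 2 and 'damaged' replicates 1 and 2, and the groups here follow the labels of the transcript files. The part of these labels in the results was not tested, and results are also given for the other 8 libraries, a set chosen after seeing the data. Transcripts of the oocyte markers summed to 9760 to 11480 CPM (counts scaled to a library of common size) in GV, 4700 to 7169 in MII and 5400 to 7099 in 'damaged' oocytes. The markers did not move alike. *ZP3* had 1529 to 2071 CPM in GV and 61.6 to 138 in MII, and *GDF9* had 1735 to 2316 and 255 to 426. *ZP2* and *BMP15* overlapped between GV and both cultured groups, with 1773 to 2798 and 1081 to 1664 CPM in GV. Of 12 markers of cumulus and granulosa cells 8 were found, with sums of 8.35 to 10.99, 16.2 to 25.6 and 20.1 to 26.8 CPM in the same order, and the part of such cells in the results was not tested. Most of that sum was *FST*, at 6.48 to 8.74, 15.5 to 24.7 and 18.9 to 25.0 CPM. *STAR* had 0.589 to 1.34, 0.369 to 0.991 and 0.464 to 1.28 CPM. *TNFAIP6* had 0.0421 to 1.48, 0 to 3.185 and 0 to 0.0752 CPM. *FSHR* stayed under 0.70 CPM in each library. *LHCGR* and *PTX3* had a count of 0 in the columns of the gene table that were used, and *AMH* was at 0 in all MII libraries. Of 8 markers of other cells of the follicle and of blood 6 were found, with sums of 9.13 to 16.6, 16.1 to 33.5 and 15.7 to 27.6 CPM. Most of that sum after culture was the endothelial marker *PECAM1*, at 3.39 to 5.70, 8.11 to 24.8 and 7.71 to 20.2 CPM, and its part in the results was likewise not tested.

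Levels were compared between libraries as CPM after scaling with TMM factors, which assume that most genes do not change. On this scale the middle of the 13222 genes tested lay at a log2 fold change of -0.17 for MII versus GV and -0.14 for 'damaged' versus GV. On the library totals alone it was -1.09 and -1.01, so the scaling moved every gene by about the same amount, and which one holds per oocyte cannot be told apart in these data. A lower level can also mean a shorter poly(A) tail, since polyA RNA was taken, or less RNA per oocyte. A gene passed the test at an FDR under 0.01 in limma-voom, and a differentially expressed gene (DEG) also had an absolute log2 fold change over 2.

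*MOS* was by far the most abundant transcript of the pathway, *MAP2K1* carried nearly all MEK transcripts and *RPS6KA3* nearly all RSK transcripts. After culture *MAP2K2* was nearly lost and *RPS6KA1* fell, with and without a polar body, while *MOS*, *MAP2K1* and *RPS6KA3* did not pass the test. Of the 7 members 5 were abundant enough to be tested, and 0 rose and 2 fell in MII versus GV. Among all genes tested 28.2% rose and 34.2% fell in that comparison. At an unadjusted p under 0.05, 1 member, *MAP2K1*, was higher in each comparison with GV. In 'damaged' versus GV again 0 rose and 2 fell, against 28.0% and 33.4% of all genes. Both comparisons share the GV libraries and are not independent. Between MII and 'damaged' oocytes 0 of the 5 passed, also at an unadjusted p under 0.05, and 0.0% of all genes passed.

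**Figure D1:**
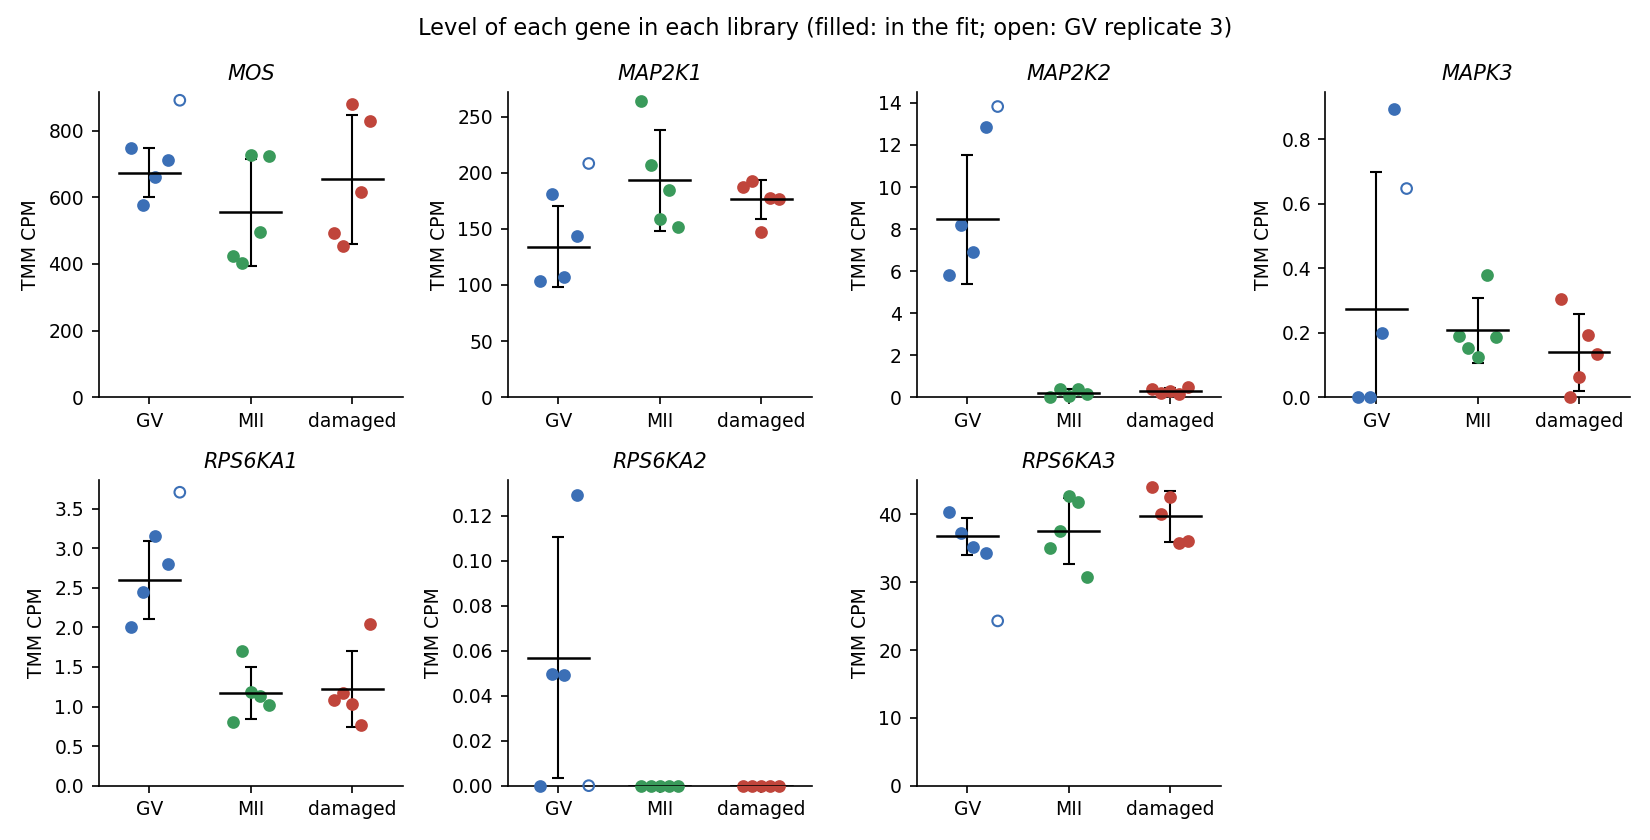
Level of each gene in TMM CPM (vertical axes, linear, from 0) in each library of GV, MII and 'damaged' oocytes. Filled points are the 14 libraries of the fit, the open point is GV replicate 3, and the line and bars are the mean and SD of the filled points. The open point was scaled with TMM factors computed over all 15 libraries. *MAP2K2* lies between 5.84 and 12.9 CPM in the filled GV points, at 13.8 CPM in GV replicate 3 and at or under 0.47 CPM in both cultured groups, whereas the groups overlap for *MOS*, *MAP2K1* and *RPS6KA3*.

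Within the GV oocyte the order of the transcripts was read from TPM, which is per length. *MOS* (ENSSSCG00000006248, chromosome 4, 75739402 to 75741076 in Sscrofa11.1, with 1 annotated transcript found) had 1060 ± 182 TPM (SD, n = 4) and ranked 133 of 18201 genes with a TPM above 0. *MAP2K1* followed with 84.8 ± 31.5 TPM and *RPS6KA3* with 20.8 ± 2.18 TPM. *MAP2K2* came next with 9.05 ± 4.71 TPM. *RPS6KA1* had 1.02 ± 0.287 TPM and *MAPK3* 0.489 ± 0.792 TPM, and these overlapped. *RPS6KA2* was the lowest at 0.0296 ± 0.0302 TPM.

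In MII oocytes the first 3 places were the same. *MOS* had 425 ± 144 TPM (SD, n = 5) and ranked 312 of 17608 genes, *MAP2K1* had 57.3 ± 11.7 and *RPS6KA3* 10.3 ± 1.71 TPM. *RPS6KA1* at 0.216 ± 0.0582, *MAPK3* at 0.154 ± 0.0709 and *MAP2K2* at 0.0991 ± 0.0868 TPM overlapped with their neighbours in this order. In 'damaged' oocytes *MOS* had 522 ± 188 TPM and ranked 261 of 17633 genes, followed by *MAP2K1* at 54.4 ± 6.20 and *RPS6KA3* at 11.2 ± 0.790 TPM. There *MAP2K2* at 0.159 ± 0.0763 TPM lay between *RPS6KA1* at 0.239 ± 0.119 and *MAPK3* at 0.107 ± 0.0856 TPM, again overlapping with both.

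*MOS*, the kinase at the head of the chain, did not pass the test on the TMM scale. In GV replicates 1, 2, 4 and 5 it had 748, 578, 660.5 and 711 CPM. In MII replicates 1 to 5 it had 425, 402, 727, 496.5 and 726 CPM, and in 'damaged' replicates 1 to 5 it had 493, 455, 880, 615 and 828 CPM. The 4 lowest values of all were replicates 1 and 2 of both cultured groups, MII replicate 4 was also below GV, and the other 5 cultured libraries lay within the GV range or above it. The log2 fold change was -0.32 ± 0.21 (SE) in MII versus GV (FDR = 0.174) and -0.09 ± 0.21 in 'damaged' versus GV (FDR = 0.722). The 95% confidence intervals, -0.76 to 0.12 and -0.52 to 0.35, leave room for a fall in either group.

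The call for *MOS* was not stable. With TMM factors but only genes of at least 10 CPM in 4 libraries it fell by 0.65 on the log2 scale in MII versus GV (FDR = 0.00925). On the library totals it fell by 1.24 (FDR = 5.2e-05) and by 0.96 (FDR = 0.000607) on the log2 scale, close to the median of all genes on that scale. In TPM, which also refers to the total, GV libraries had 950 to 1330 and MII libraries 290 to 606, without overlap. In the 8 libraries with agreeing names the TMM values were -0.07 in MII and 0.19 in 'damaged' oocytes, and neither passed the test. GV replicate 3 had 892 CPM, above the other GV libraries.

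*MAP2K2*, which encodes MEK2, showed the largest change of the 5 members tested (ENSSSCG00000027127, chromosome 2, 74626739 to 74651352). GV replicates 1, 2, 4 and 5 had 5.84, 8.20, 6.92 and 12.9 CPM, or 114 to 310 counts. MII replicates 1 to 5 had 0, 0.387, 0.0707, 0.407 and 0.159 CPM, and 'damaged' replicates 1 to 5 had 0.388, 0.194, 0.309, 0.167 and 0.466 CPM. Every GV library was above every cultured library. GV replicate 3, outside the fit, had 13.8 CPM, and so stood with GV. The cultured libraries held 16.2 counts in all in MII and 22.2 in 'damaged' oocytes, against 729 in GV. In MII replicate 1 the count of 0 allows up to 0.284 CPM (3 counts, counting error only).

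*MAP2K2* thus fell in MII versus GV by 5.42 ± 0.54 on the log2 scale (FDR = 2.59e-08), about 42.7-fold, with an interval of -6.54 to -4.30. In 'damaged' versus GV it fell by 4.68 ± 0.46 (FDR = 2.48e-08), about 25.6-fold, with an interval of -5.64 to -3.72. It was the only DEG among the 5 members tested. Of all genes tested 17.0% and 16.4% were DEGs with a fall. On the library totals the falls were larger, 6.31 and 5.55. Groups that did not overlap on the TMM scale were seen for 2 of the 5 members tested in MII versus GV, *MAP2K2* and *RPS6KA1*, against 59.9% of all genes, and for 1 in 'damaged' versus GV, against 58.4%.

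*MAP2K1*, which encodes MEK1 (ENSSSCG00000004943, chromosome 1, 164381892 to 164469313), lay higher in most cultured libraries but did not pass the test. GV replicates 1, 2, 4 and 5 had 104, 181, 107 and 144 CPM. MII replicates 1 to 5 had 264, 207, 159, 185 and 152 CPM and 'damaged' replicates 1 to 5 had 187, 193, 147, 177 and 177 CPM. GV replicate 2 overlapped with both cultured groups. GV replicate 3, with 208 CPM, lay within the MII range and above every 'damaged' library. The log2 fold change was 0.53 ± 0.18 in MII versus GV (FDR = 0.0115, interval 0.16 to 0.90) and 0.43 ± 0.18 in 'damaged' versus GV (FDR = 0.0383, interval 0.06 to 0.80).

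The direction for *MAP2K1* also depended on the scaling. On the library totals it was -0.38 (FDR = 0.0800) and -0.44 (FDR = 0.0445). On the TMM scale it passed the test in MII versus GV without GV replicate 2 (0.69, FDR = 0.00218), without MII replicate 3 (0.60, FDR = 0.00807) or without MII replicate 5 (0.61, FDR = 0.0060), and in 'damaged' versus GV without GV replicate 2 (0.58, FDR = 0.00745). Under either scaling *MAP2K1* lay above the median of all genes.

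**Figure D2:**
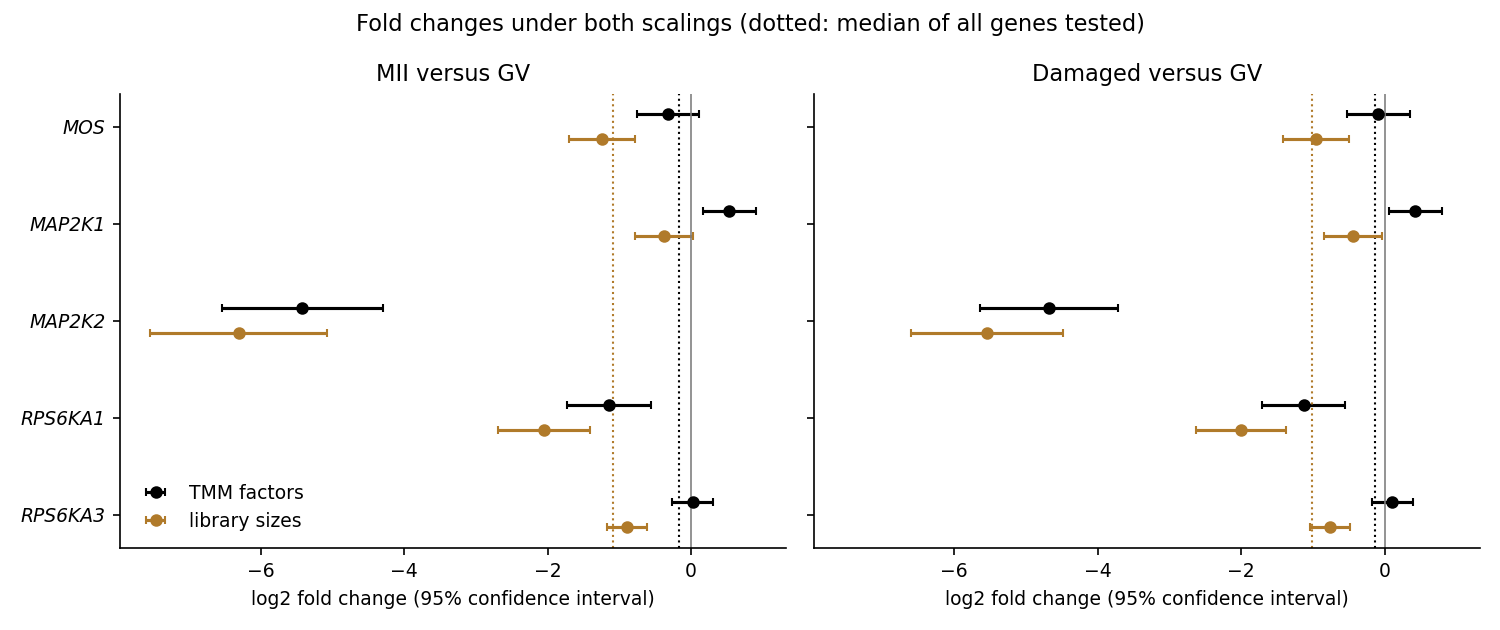
Log2 fold changes of the 5 members tested with 95% confidence intervals (horizontal axes) in MII versus GV and 'damaged' versus GV, with TMM factors in black and library totals in brown. Dotted lines mark the median of all 13222 genes under each scaling, -0.17 and -1.09 in MII versus GV. *MAP2K2* lies far below both medians, while *MOS* and *RPS6KA3* lie near the median of their own scaling.

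The MEK pair was also compared within each library, where the scaling between libraries cancels. *MAP2K1* made up 90.5% ± 2.51 of the summed TPM of both genes in GV (87.1 to 93.0%, n = 4), 99.8% ± 0.153 in MII and 99.7% ± 0.123 in 'damaged' oocytes (n = 5 each). GV replicate 3 had 90.1%. The GV libraries did not overlap with the cultured ones, and an exact two-sided permutation test gave p = 0.0159 in each comparison with GV. This is the smallest p that 4 against 5 libraries can give. It came to 0.0952 after adjustment over the 12 tests of such shares and ratios, and none of the 12 passed at 0.05. Complete separation in both comparisons with GV alone could not pass this adjustment, so the adjusted value decides nothing here. The share was chosen after seeing the data.

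*MAPK3*, which encodes ERK1 (ENSSSCG00000040682, chromosome 3, 18291444 to 18299410), stayed under the filter on low counts and was not tested. Its counts were 0, 0, 4.16 and 21.5 in GV replicates 1, 2, 4 and 5, between 1.62 and 7.16 in MII and between 0 and 4.02 in 'damaged' oocytes. Of the 14 libraries, 1 was thus above 10 counts, GV replicate 5. At this depth no difference in *MAPK3* was detectable.

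The levels along the chain were also set against each other within the library, as ratios of TPM. The ratio of *MOS* to *MAP2K1* was 8.12 to 18.3 in GV, 4.09 to 12.2 in MII and 5.99 to 15.2 in 'damaged' oocytes, and overlapped (exact permutation p = 0.0794 and 0.175, adjusted 0.229 and 0.299). The ratio of *RPS6KA3* to *MAP2K1* overlapped as well (exact permutation p = 0.0952 and 0.159, adjusted 0.229 and 0.299).

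**Figure D3:**
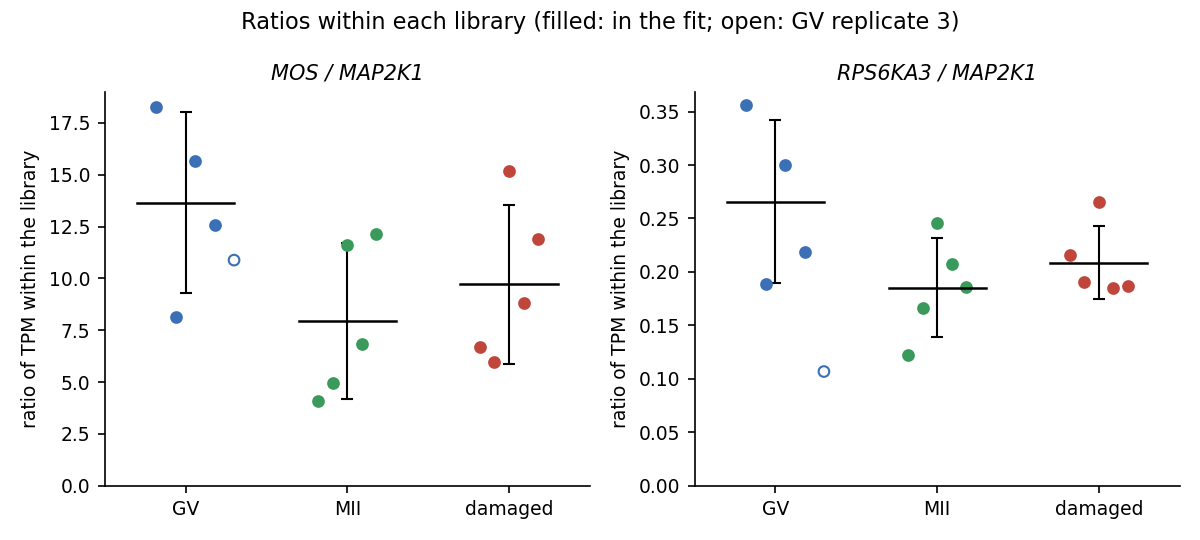
Ratios of TPM within each library (vertical axes, linear, from 0) for *MOS* over *MAP2K1* and *RPS6KA3* over *MAP2K1* in GV, MII and 'damaged' oocytes. Filled points are the libraries compared, the open point is GV replicate 3, and the line and bars are the mean and SD of the filled points. Both ratios overlap between the groups.

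Of the RSK genes *RPS6KA3*, which encodes RSK2 (ENSSSCG00000012163, chromosome X, 16452401 to 16576854), did not pass the test on the TMM scale. GV replicates 1, 2, 4 and 5 had 40.4, 37.2, 35.2 and 34.3 CPM. MII replicates 1 to 5 had 35.1, 37.5, 42.7, 41.8 and 30.8 CPM, and 'damaged' replicates 1 to 5 had 44.0, 40.1, 42.6, 35.8 and 36.0 CPM. The 3 groups overlapped. The log2 fold change was 0.03 ± 0.14 in MII versus GV (FDR = 0.871, interval -0.26 to 0.31) and 0.11 ± 0.14 in 'damaged' versus GV (FDR = 0.483, interval -0.17 to 0.39), whereas on the library totals it fell by 0.89 (FDR = 7.45e-06) and by 0.77 (FDR = 4.02e-05). GV replicate 3 had 24.3 CPM, below the other 14 libraries.

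*RPS6KA1*, which encodes RSK1 (ENSSSCG00000003558, chromosome 6, 83905124 to 83947189), was scarce in GV and scarcer after culture. GV replicates 1, 2, 4 and 5 had 2.003, 2.45, 3.15 and 2.80 CPM, or 39.2 to 67.5 counts. MII replicates 1 to 5 had 0.806, 1.70, 1.19, 1.14 and 1.01 CPM and 'damaged' replicates 1 to 5 had 1.09, 1.17, 1.03, 0.771 and 2.04 CPM. All MII libraries were below GV, and 'damaged' replicate 5 reached into the GV range. *RPS6KA1* fell by 1.14 ± 0.28 in MII versus GV (FDR = 0.00116) and by 1.13 ± 0.28 in 'damaged' versus GV (FDR = 0.00120), and by 2.05 and 2.01 on the library totals. In the 8 libraries with agreeing names the fall in 'damaged' oocytes, 1.28, no longer passed (FDR = 0.0123).

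*RPS6KA2*, which encodes RSK3 (ENSSSCG00000004022, chromosome 1, 2203825 to 2522604), was at the limit of detection. GV replicates 1, 2, 4 and 5 held 0, 0.966, 1.03 and 3.11 counts, GV replicate 3 held 0, and so did all 10 cultured libraries. A count of 0 allows up to 0.159 to 0.284 CPM per library in MII and 0.182 to 0.228 CPM in 'damaged' oocytes, and the GV libraries lay below this, at 0.129 CPM or less, so no difference was detectable. Of the summed TPM of *RPS6KA1*, *RPS6KA2*, *RPS6KA3* and *RPS6KA6*, *RPS6KA3* made up 90.0% ± 1.98 in GV, 91.2% ± 2.25 in MII and 92.4% ± 1.06 in 'damaged' oocytes. *RPS6KA1* made up 4.35% ± 0.998, 1.93% ± 0.516 and 1.96% ± 0.889.

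MII and 'damaged' oocytes, which differ in the polar body after the same culture, were compared in the same fit. The log2 fold change of MII versus 'damaged' was -0.23 ± 0.20 for *MOS* (interval -0.65 to 0.18), 0.11 ± 0.17 for *MAP2K1* (-0.24 to 0.46) and -0.08 ± 0.13 for *RPS6KA3* (-0.36 to 0.19). For *MAP2K2* it was -0.74 ± 0.66 (-2.12 to 0.64) and for *RPS6KA1* -0.01 ± 0.31 (-0.66 to 0.63), where counts were lowest. Each had an FDR of 1.00 when rounded. Over all genes limma-voom called 0, edgeR 0 and DESeq2 0, and 195 of 13222 had an unadjusted p under 0.05. The intervals for *MOS*, *MAP2K1* and *RPS6KA3* hold differences of up to 0.65 on the log2 scale, and a difference of that size could be present.

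The use of isoforms was tested for genes with at least a pair of transcripts that passed the filters, as the share of each transcript in the TPM of its gene. An isoform was called at an FDR under 0.01 in limma diffSplice with a change of over 10 percentage points. Among all 16178 isoforms tested 29.2% were called in MII versus GV, 29.5% in 'damaged' versus GV and 0.00618% in MII versus 'damaged'. *MAP2K1* was called in both comparisons with GV, for 2 of its 2 isoforms tested. In each comparison these 2 calls are 1 observation, since both shares together make up nearly the whole gene. *MOS* has a single transcript, and *MAPK3* and *RPS6KA2* were too low to be tested.

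In *MAP2K1* the share moved from the shorter to the longer transcript. ENSSSCT00000036045.3, with an effective length of 4262 bases, made up 18.4, 9.04, 19.7 and 19.9% of the gene in GV replicates 1, 2, 4 and 5. In MII replicates 1 to 5 it made up 33.5, 41.6, 39.2, 35.3 and 40.9%, and in 'damaged' replicates 1 to 5 it made up 32.0, 36.9, 42.4, 40.6 and 56.0%. All cultured libraries were above all GV libraries, and GV replicate 3 had 3.58%. The share rose by 21.3 percentage points in MII (FDR = 0.000138) and by 24.8 in 'damaged' oocytes (FDR = 3.79e-05). ENSSSCT00000104742.1, with an effective length of 3522 bases, fell by 21.9 (FDR = 0.000138) and by 24.8 percentage points (FDR = 3.79e-05). Both calls also held in the 8 libraries with agreeing names. These shares are estimates that split reads between transcripts with shared sequence, and rested on 357 to 2970 estimated counts per transcript.

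In *RPS6KA3*, of 10 transcripts found 5 were tested and 3 were called in MII and 2 in 'damaged' oocytes, although the level of the gene did not pass on the TMM scale. The largest mean share was that of ENSSSCT00000036028.4, with 52.5% in GV, 41.8% in MII and 41.9% in 'damaged' oocytes. It was not called in either comparison with GV (FDR = 0.375 and 0.168). ENSSSCT00000013304.4 made up 32.1, 32.8, 26.7 and 41.7% in GV replicates 1, 2, 4 and 5. It made up 5.99, 0, 3.89, 0 and 8.46% in MII replicates 1 to 5 and 20.7, 0, 1.97, 0 and 0% in 'damaged' replicates 1 to 5. Its share fell by 29.7 percentage points in MII (FDR = 0.000168) and by 28.8 in 'damaged' oocytes (FDR = 9.09e-06), with no overlap with GV. GV replicate 3, outside the fit, had 78.9%, above every other library. The *RPS6KA3* shares too are estimates that split reads between transcripts with shared sequence. ENSSSCT00000013304.4 had 181 to 315 estimated counts in GV, 0 to 39.2 in MII and 0 to 112 in 'damaged' oocytes. A share of 0% is thus an estimate, and absence of the transcript was not tested.

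The share of the *RPS6KA3* transcript ENSSSCT00000036602.4 was higher in most cultured libraries, with 0 to 16.5% in GV, 16.2 to 53.8% in MII and 11 to 39.9% in 'damaged' oocytes. This share rested on 0 to 111, 51.8 to 256 and 55.3 to 184.5 estimated counts per library in the same order. It rose by 25.0 percentage points in MII (FDR = 0.00164) and by 20.5 in 'damaged' oocytes (FDR = 0.00592). With the DEXSeq model neither passed (FDR = 0.0286 and 0.0562), and the call in 'damaged' oocytes was lost without GV replicate 2, 4 or 5 or 'damaged' replicate 4 or 5 (FDR = 0.0415, 0.0128, 0.0175, 0.0126 and 0.0172), without the isoform fraction filter (FDR = 0.0128) and in the 8 libraries with agreeing names (FDR = 0.0342). ENSSSCT00000073938.1 rose from 0.837 to 2.11% in GV to 3.86 to 18.7% in MII (FDR = 0.00568). In 'damaged' oocytes it made up 2.49 to 20.0%, above every GV library, but was not called (6.80 percentage points, FDR = 0.0657). The call in MII was lost without GV replicate 2, 4 or 5 or MII replicate 1, 2 or 4 (FDR = 0.0168, 0.0138, 0.0158, 0.0106, 0.0147 and 0.0173). It was also lost without the isoform fraction filter (FDR = 0.0216) and in the 8 libraries with agreeing names (7.72 percentage points, FDR = 0.0823).

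*RPS6KA1* had 4 isoforms tested and 0 called, with a lowest FDR of 0.0192 and shares between 0 and 100% from library to library. For *MAP2K2* 3 and 2 of 4 isoforms were called, but the cultured libraries held at most 7.68 counts of the whole gene, so its shares were not read.

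**Figure D4:**
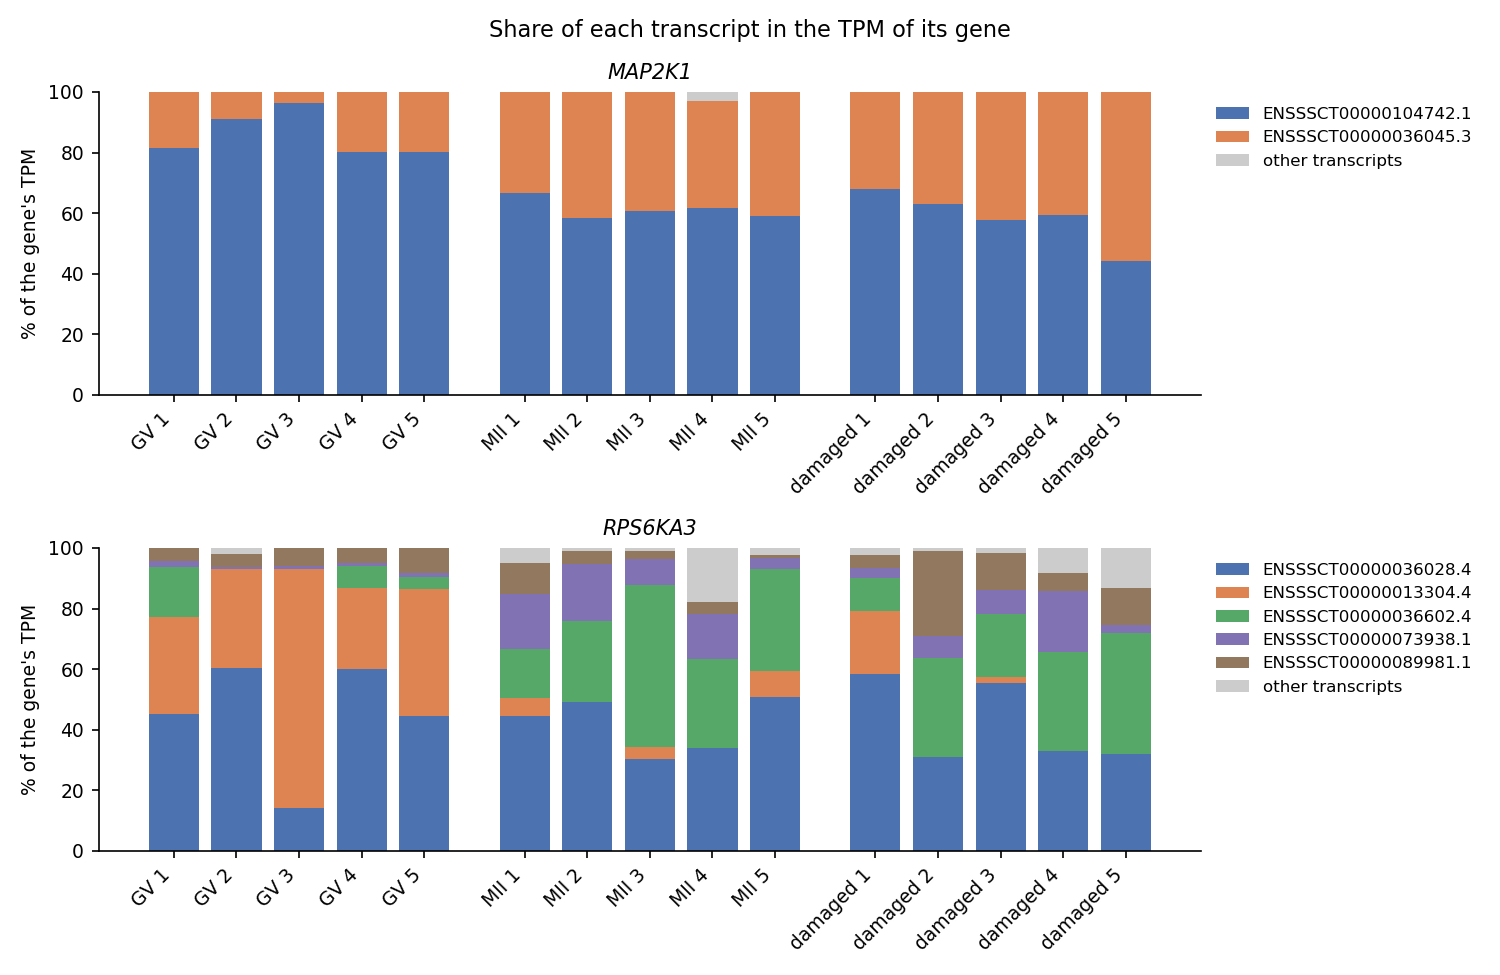
Share of each transcript in the TPM of *MAP2K1* (upper panel) and *RPS6KA3* (lower panel), in percent, for each of the 15 libraries, GV replicate 3 included. Colours are transcripts, and grey sums those not tested. The longer *MAP2K1* transcript, in orange, stays under 20% in GV and above 32% in both cultured groups, and the *RPS6KA3* transcript ENSSSCT00000013304.4, in orange below, is at 26.7% or more in GV and at most 20.7% after culture.

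Genes around the pathway were taken from 6 lists by symbol, and the counts are given beside the share of all genes above. The RAS and RAF list holds the input that switches on MEK in other cells. Of its 17 genes 16 were tested, and in MII versus GV 9 rose and 3 fell, with a median log2 fold change of 0.50. On the library totals, where 10.9% of all genes rose and 57.6% fell in MII and 11.2% and 56.0% in 'damaged' oocytes versus GV, 3 of these genes rose and 4 fell in MII. *LAMTOR3*, a scaffold of MEK1 and ERK, rose by 1.84, the RAS gene *NRAS* by 1.83 and the RAS inhibitor *NF1* by 1.59, and all 3 were also higher on the library totals. *HRAS* fell by 5.58, the RAF kinase *ARAF* fell by 3.94 and the adaptor *SHC1* fell by 1.03. The MII libraries together held 7.80 counts of *HRAS* and 21.7 of *ARAF*, against 345 and 464 in GV. The sizes of the falls of *HRAS* and *ARAF* thus rest on few counts. In 'damaged' versus GV 8 rose and 3 fell.

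The list named ERK phosphatases and anchors held 11 genes, DUSP phosphatases and the anchor *PEA15*, not sorted by the MAP kinase they act on. Of these 6 were tested, all DUSP genes, as *PEA15* stayed under the filter on low counts. In MII versus GV 0 rose and 4 fell and in 'damaged' versus GV 0 rose and 3 fell. The medians were -1.004 and -0.90. With library totals 6 and 5 fell. *DUSP5*, a nuclear phosphatase of ERK, fell by 4.58, from 28.6 to 41.3 CPM in GV to 1.13 to 1.83 CPM in MII. *DUSP6*, a cytoplasmic phosphatase of ERK, fell by 1.60 in MII (FDR = 0.00350) from 1.06 to 2.06 CPM in GV, and did not pass in 'damaged' oocytes (-1.02, FDR = 0.0328). *DUSP7* fell by 1.01.

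Of the kinases downstream of or beside RSK 6 of 8 were tested, and 4 rose and 0 fell in each comparison with GV on the TMM scale, with medians of 0.91 and 0.91. Without TMM factors 0 rose and 1 and 2 fell. *RPS6KB1*, which encodes an S6 kinase of the mTOR pathway, rose by 1.22, *PDPK1*, the kinase that phosphorylates RSK and S6 kinases, by 1.06 and *MKNK1*, an ERK target that phosphorylates eIF4E, by 1.00. On the library totals their log2 fold changes were 0.30, 0.15 and 0.09.

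The list of metaphase II arrest and CDK1 control had 13 of 14 genes tested, of which 7 rose and 3 fell in MII and in 'damaged' oocytes alike in number, with medians of 1.07 and 1.17. With library totals 4 rose and 6 fell. *CCNB1*, the cyclin partner of CDK1, rose by 2.60, from 694 to 1182 CPM in GV to 4571 to 5772 CPM in MII. *CDC20*, the activator of the anaphase promoting complex, rose by 2.01 and *WEE2*, the oocyte kinase that inhibits CDK1, by 1.99. *CDC25B*, the phosphatase that activates CDK1 at meiotic resumption, fell by 4.50, *CDK1* itself by 3.96 and *CDC25A* by 3.13. *CDK1* went from 210 to 760 CPM in GV to 19.7 to 34.96 CPM in MII, and the GV libraries differed widely.

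Regulators of the translation of *MOS* mRNA had 10 of 12 genes tested, of which 5 rose and 2 fell in MII and 4 rose and 2 fell in 'damaged' oocytes, with medians of 0.21 and 0.13. Without TMM factors 2 rose and 5 and 6 fell. *CPSF2*, a subunit of the polyadenylation complex, rose by 1.53, the poly(A) polymerase gene *TENT2* by 1.45 and *CPEB2*, which encodes a binding protein of cytoplasmic polyadenylation elements, by 1.34. *ZAR1*, which encodes an RNA binding protein of the oocyte, fell by 4.64, from 125 to 196 CPM in GV to 4.34 to 7.97 CPM in MII, and *SYMPK*, which encodes the scaffold symplekin, by 1.84 at under 1 CPM.

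The other MAP kinase modules (p38, JNK and ERK5) had all 14 genes tested, of which 6 rose and 5 fell in each comparison with GV, with medians of -0.15 and -0.24. With library totals 2 rose and 8 fell. *MAP2K6*, an activator of p38, rose by 1.99, the atypical kinase gene *MAPK6* by 1.85 and the JNK gene *MAPK8* by 1.51. *MAP2K3*, the other activator of p38, fell by 5.51, from 8.97 to 19.1 CPM in GV to 0.159 to 0.455 CPM in MII. The ERK5 gene *MAPK7* and its activator *MAP2K5* fell by 2.68 and 2.31.

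**Figure D5:**
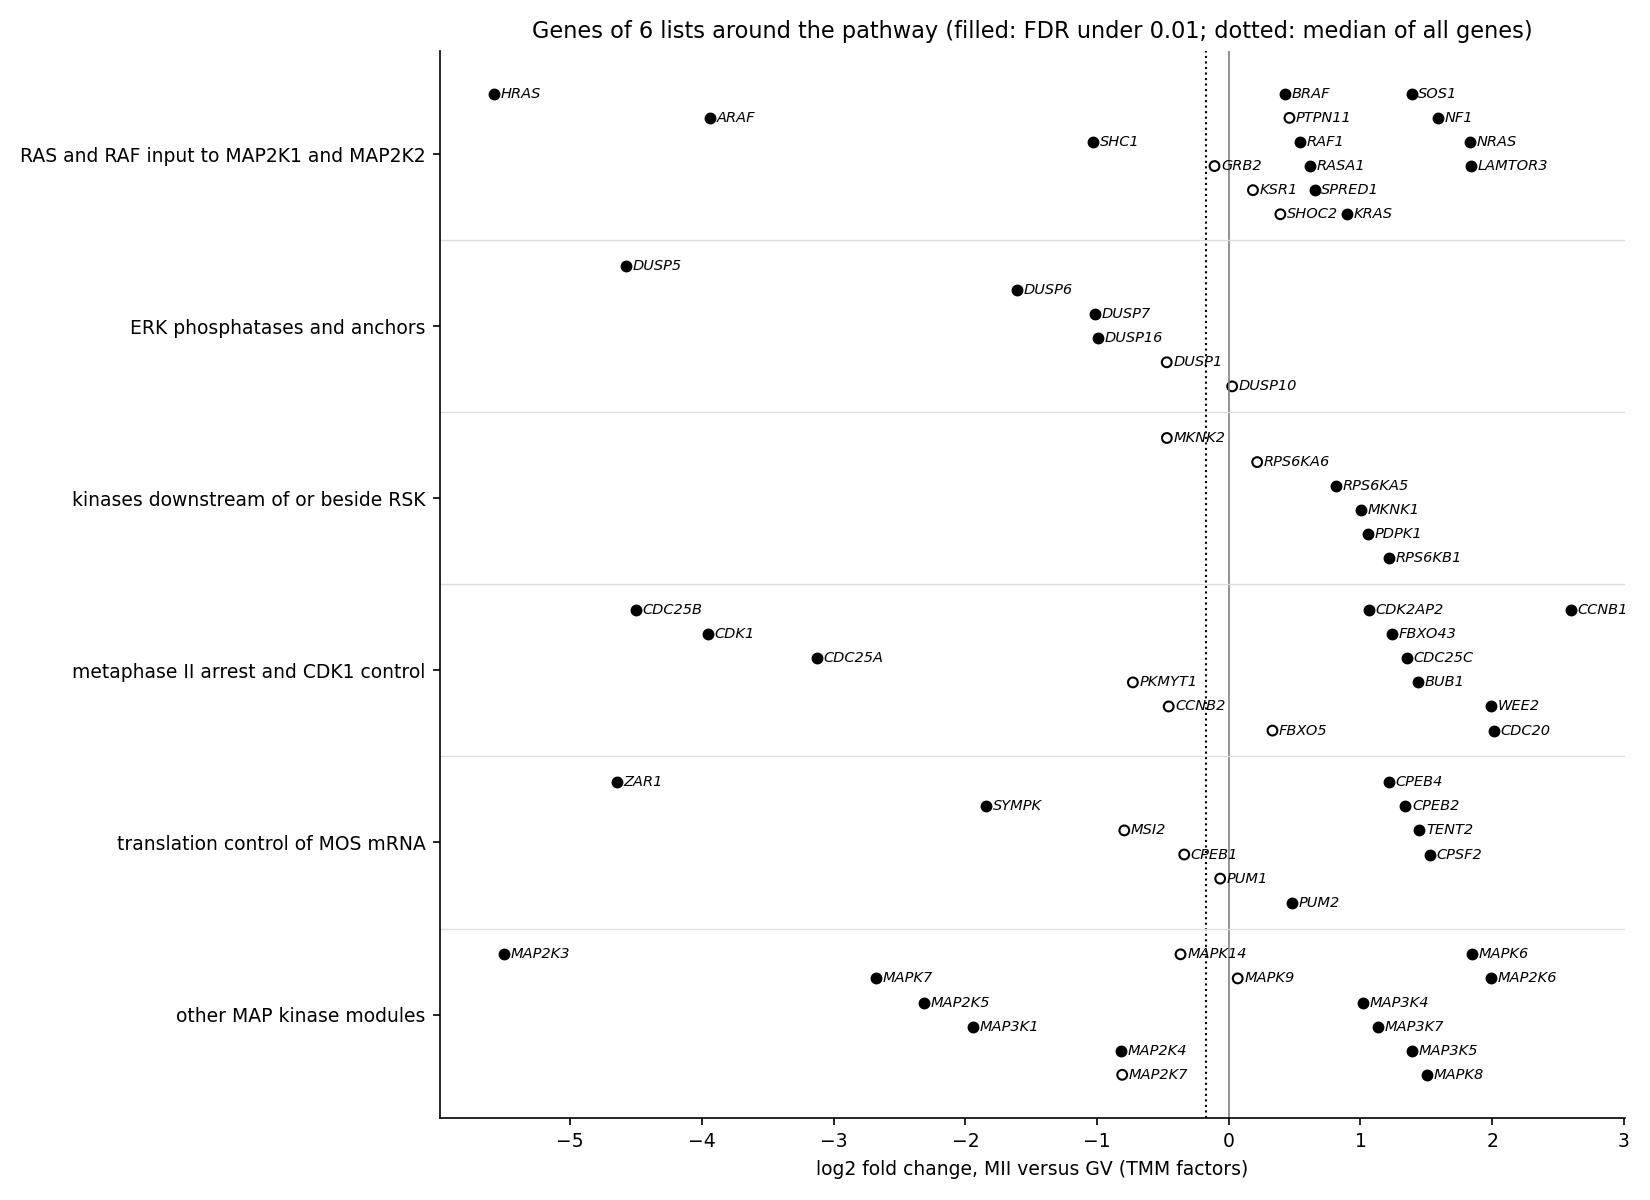
Log2 fold change in MII versus GV (horizontal axis, TMM factors) of the genes tested in 6 lists, 1 point a gene. Filled points passed an FDR of 0.01, the dotted line is the median of all genes, -0.17, and the vertical scatter only separates the names. In the list named ERK phosphatases and anchors 0 of the 6 genes tested, all DUSP genes, passed with a rise, against 28.2% of all genes. The list of metaphase II arrest holds both *CCNB1* at 2.60 and *CDC25B* at -4.50.

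The genes whose levels were most like *MOS* over the 14 libraries were named by Pearson correlation of TMM log2 CPM, as a description. They were *TSPAN15* (r = 0.925), *CPEB1* (0.875), *EIF4E1B* (0.865), *PAQR5* (0.864) and *SALL4* (0.859). For *MAP2K1* they were *PPP4R2* (0.971), *NSMCE4A* (0.943), *LRRC42* (0.934), *VKORC1L1* (0.934) and *LAMB1* (0.930). The values of a library share its depth and its scaling factor, and the 3 groups are pooled in these correlations.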

How the data were processed

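The 15 pig libraries (SMART-Seq cDNA, single-end reads) were trimmed and quantified by the authors with Kallisto (version 0.43 per the submitters' processing notes) on the Ensembl cDNA of Sscrofa11.1. The deposited transcript files hold estimated counts that are not normalized, TPM, scaled by the authors to the same total in each library, and effective lengths. The deposited gene table holds estimated counts that the authors derived with tximport (lengthScaledTPM). Of its 15 columns, 8 had the name and the total of the same library, and the other 7 were not used. To learn which transcripts belong to a gene, sums of TPM were matched to those 8 columns (18742 genes placed, largest difference from a deposited count 0.00189%). The same formula then gave the gene counts of each library, which cover 99.995 to 99.999% of its estimated counts. Symbols came from the gene name table and positions from RefSeq by symbol.

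A single model of 3 groups was fitted to all genes with voom and limma 3.58.1 (R 4.3.3), on genes kept by filterByExpr and with TMM factors from edgeR 4.0.16. GV replicate 3 was left out, since the study removed 1 GV library for low depth. FDR is the Benjamini-Hochberg value over all genes. No scaling factors were named in the methods used here, so values on library totals stand beside those with TMM. Isoforms (gene TPM over 1, isoform fraction over 0.05) were tested with limma diffSplice in place of the study's tool. Alternatives included edgeR's quasi-likelihood test, DESeq2 1.42.0, for which counts were rounded, and the DEXSeq model fitted in it. The gene fit was also tested on simulated data: for MII versus GV, with 12949 genes, it recovered 100 of 100 genes set at log2 fold 3 and 67 of 100 set at log2 fold 1, with 2 false calls. These data had few changed genes, as many up as down and none of low count, and a single dispersion of 0.05. They held no shift of most genes, so the calls do not measure errors where the TMM assumption fails. Ratios within libraries were chosen after seeing the data and tested with scipy 1.17.1. Figures used matplotlib 3.10.9. Totals were 6.40 to 23.6 M estimated counts. The limit for a count of 0 is 3 counts, and intervals are at 95%. The methods describe separate collections and the labels do not say so, so p-values measure the spread between these samples. The members and lists were chosen with earlier results of these data known. Named genes are the members, up to 3 higher and 3 lower per list by fold among those that passed in MII versus GV, and the 5 most like *MOS* and *MAP2K1*. Of the listed genes, *PEBP1*, *RPS6* and *DAZL* had no ID in the gene name table, and 1 further gene is not reported here.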

Additional observations from a re-analysis of the deposited data

Results flagged for a closer look

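Within groups of 4 or 5 libraries, 1 library stood apart from the rest of its group in 4 of 26 sets of values examined by the gap to its nearest neighbour, and chance gives about 1 in 20 of independent sets. These sets are not independent: the shares of both *MAP2K1* transcripts in GV replicate 2 are 1 observation, since they sum to the whole gene, and the third transcript was at 0 in all but 1 library of its group. For *MAP2K1*, GV replicate 2 had 91.0% of the gene in the shorter transcript ENSSSCT00000104742.1, with the next GV library at 81.6%, and 9.04% in the longer ENSSSCT00000036045.3, with the next at 18.4%. This library also had the highest *MAP2K1* level of the 4 GV libraries, 181 CPM. The third transcript, ENSSSCT00000082429.1, made up 3.07% in MII replicate 4 and 0% in the other 4 MII libraries. *MAPK3* was at 0.380 CPM in MII replicate 4, with the next MII library at 0.190 CPM, both from fewer than 10 counts.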

How the results depend on the processing

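Of 369 recomputed log2 fold changes of single members, 334 kept their direction and side of the threshold, 20 changed sign, of which 2 newly passed, 14 others newly passed and 1 no longer passed. All 76 values of the *MAP2K1* isoforms held. Of those of *RPS6KA3*, 170 held, 18 lost the call and 2 gained it. Both gains were ENSSSCT00000036028.4 without the isoform fraction filter, at -10.7 percentage points in MII and -10.5 in 'damaged' versus GV (FDR = 0.00951 and 0.0060). The cause of the changes was not tested. On library totals 4 members fell in MII and 4 in 'damaged' oocytes versus GV, and *MAP2K1* (-0.38 and -0.44) and *RPS6KA3* (-0.89 and -0.77) turned to a fall. With at least 10 CPM in 4 libraries, which tests fewer genes, 5388 and 5312 genes passed against 8249 and 8117, 1387 and 1331 were DEGs against 2850 and 2704, *MAP2K2* and *RPS6KA1* were not tested, 1 and 0 of the other members fell (*MOS* in MII, -0.65, FDR = 0.00925), and *RPS6KA3* was at -0.30 and -0.21. In MII versus GV 1 member rose, *MAP2K1*, with RLE factors (0.59), DESeq2 (0.58), library quality weights (0.52) and summed Kallisto counts (0.62), the last also giving 1 in 'damaged' versus GV (0.53). In the 8 libraries labelled alike 1 member fell in 'damaged' oocytes, *MOS* was at 0.19 there and *MAP2K1* at -0.015 in MII versus 'damaged'. *RPS6KA1* in MII versus 'damaged' was at 0.004 with RLE factors and 0.093 with quality weights.

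The methods describe 5 collections, but no source used here says that a replicate number marks one. Deviations from the group means of same-numbered libraries correlated between -0.101 and 0.321, above 0 in 12 and above 0.1 in 3 of 13 pairs. Of these, 6 pairs had their highest correlation with their own number. These values do not settle whether libraries are paired by number, and the main test did not use the number. With the replicate number as a block 1 member rose in MII, *MAP2K1* (0.595, FDR = 0.00338), *MOS* passed (-0.43, FDR = 0.00793), *RPS6KA3* was at -0.008, the call of ENSSSCT00000036602.4 in 'damaged' oocytes was lost (FDR = 0.0201), and 3 isoforms were called in MII versus 'damaged'. That count was 1 in the main test, 8 without the isoform fraction filter, 2 with all 5 GV libraries, 13 in the 8 libraries labelled alike and 2 with the DEXSeq model. Leaving out each replicate in turn gave 0 to 1 members that rose in MII and 0 to 1 in 'damaged' versus GV, 1 to 11 isoforms in MII versus 'damaged', and log2 fold changes of -0.21 to 0.032 (*MOS*, 'damaged' versus GV), -0.02 to 0.10 (*RPS6KA3*, MII versus GV), -0.01 to 0.19 (*MAP2K1*) and -0.16 to 0.19 (*RPS6KA1*, both MII versus 'damaged').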
